A study of Mus musculus with 12 samples.

Results

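The 7 genes described here are the 6 HoxD genes that were left intact in a mutant of *Hoxa9* to *Hoxa11* and *Hoxd9* to *Hoxd11* (*Hoxd1*, *Hoxd3*, *Hoxd4*, *Hoxd8*, *Hoxd12* and *Hoxd13*) and *Hoxa13*, the paralog of *Hoxd13* at the end of the HoxA cluster. They were taken by gene symbol from the 36186 rows of the table. The 12 RNA-Seq libraries came from the forelimb zeugopod (the forearm segment, with radius and ulna) of mouse embryos at E15.5, all on a mixed 129/CD-1 background. The cells were cut out by laser capture microdissection (LCM). There were 3 libraries of each of 4 groups, WT resting, WT proliferative and WT hypertrophic cartilage (WT, wild type) and the mutant, called *aadd*. The GEO labels call the hypertrophic libraries hyperproliferative and give *aadd* the compartment name resting. By the study's methods the *aadd* libraries hold the whole chondrocyte population of a mutant element that formed no clear compartments, so genotype and the make-up of the captured population cannot be told apart. The *aadd* mice are homozygous for first-exon frameshifts in *Hoxa9*, *Hoxa10*, *Hoxa11*, *Hoxd9*, *Hoxd10* and *Hoxd11*, each made by a LoxP insertion with a short deletion beside it. The mutations are carried in the germline. Some perichondrium can be included in such captures.

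Hox genes encode homeodomain transcription factors that lie in clusters in the order in which they are used along the body and limb axes. In the limb, the HoxD genes are used in 2 phases under regulatory landscapes on either side of the cluster. The landscape beyond *Hoxd1* acts on the genes from *Hoxd1* to *Hoxd11* in the arm and forearm, and the landscape beyond *Evx2* acts on *Hoxd13*, *Hoxd12* and their neighbours in the hand. *Hoxa13* and *Hoxd13* are best known as genes of the hand and foot plate and are normally low or silent in the forearm, where group 10 and 11 genes pattern radius and ulna.

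The homeobox is the 180 bases that encode the DNA-binding homeodomain. It was compared here base by base, so changes that leave the encoded protein the same are counted too. The homeodomains were not compared as protein. The sequences shown are those of the 3 distal genes, of groups 12 and 13, and of *Hoxd8*, the member with the highest level in *aadd*, from GENCODE transcripts on GRCm38, the same build as the mm10 of the deposited table. They run 5′ to 3′ on the coding strand, and capitals mark bases that differ from *Hoxd13*. The homeobox lies in exon 2 of 2 in each of the 4 transcripts, at chr2:74669930-74670109 (+) in *Hoxd13*, chr6:52258928-52259107 (-) in *Hoxa13*, chr2:74675843-74676022 (+) in *Hoxd12* and chr2:74706525-74706704 (+) in *Hoxd8*.
Hoxd13: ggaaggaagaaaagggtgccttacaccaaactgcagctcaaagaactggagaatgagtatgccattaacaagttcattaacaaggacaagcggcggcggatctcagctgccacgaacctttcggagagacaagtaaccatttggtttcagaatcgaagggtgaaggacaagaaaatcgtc
Hoxa13: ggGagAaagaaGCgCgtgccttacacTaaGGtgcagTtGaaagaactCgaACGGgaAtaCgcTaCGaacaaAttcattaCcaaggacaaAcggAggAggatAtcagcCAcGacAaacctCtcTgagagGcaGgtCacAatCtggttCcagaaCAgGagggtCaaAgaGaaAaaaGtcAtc
Hoxd12: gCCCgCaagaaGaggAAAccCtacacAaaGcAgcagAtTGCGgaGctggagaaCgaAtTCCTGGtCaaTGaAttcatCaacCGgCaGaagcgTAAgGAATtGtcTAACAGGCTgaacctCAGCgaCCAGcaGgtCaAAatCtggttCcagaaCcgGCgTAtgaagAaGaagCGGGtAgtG
Hoxd8: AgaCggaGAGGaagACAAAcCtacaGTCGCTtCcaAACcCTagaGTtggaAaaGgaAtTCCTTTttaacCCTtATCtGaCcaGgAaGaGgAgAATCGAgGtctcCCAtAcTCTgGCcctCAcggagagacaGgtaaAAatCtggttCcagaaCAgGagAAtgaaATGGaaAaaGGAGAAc
*Hoxa13* shared 133 of 180 bases with *Hoxd13*. *Hoxd12*, the neighbour of *Hoxd13* on the same chromosome, shared 101, and *Hoxd8* shared 93. *Hoxd4*, *Hoxd1* and *Hoxd3* shared 100, 91 and 90. Reads with several alignments were removed by the authors. Whether *Hoxa13* or *Hoxd13* lost reads by that step was not tested, and the bases that differ between them lie all along the homeobox.

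In the mm10 coordinates of the table, *Hoxd13* spanned chr2:74668310-74671598, *Hoxd12* chr2:74675030-74677705, *Hoxd8* chr2:74705489-74707307, *Hoxd3* chr2:74711993-74748271, *Hoxd4* chr2:74721978-74729159 and *Hoxd1* chr2:74762980-74765142, all on the plus strand. *Hoxa13* spanned chr6:52258853-52260880 on the minus strand. The rows of *Hoxd3* and *Hoxd4* overlap, and that of *Hoxd3* also overlaps the row of the antisense RNA *Hoxd3os1*. In GENCODE *Hoxd3os1* also overlaps *Hoxd8*. Whether strand was used in the counting is not given in the sources used here, so reads of *Hoxd3os1* and of *Hoxd3* or *Hoxd8* cannot be told apart, nor those of *Hoxd3* and *Hoxd4* where their exons coincide. *Hoxd13*, *Hoxd12*, *Hoxd1* and *Hoxa13* overlap no other row and no other GENCODE gene.

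Values are NRPKM, reads per kilobase of transcript scaled to the size of the library, further normalized between libraries by the authors. The depth was read from the smallest steps that the values of 1624 single-exon genes take, and came to between 1890000 and 3240000 reads per library. At that depth 1 read on 1 kb was worth 0.309 to 0.53 NRPKM. Levels of the cartilage marker list (*Sox9*, *Col2a1*, *Acan* and 7 others) had sums of 2390 to 3620 NRPKM for WT resting, 2760 to 4570 for WT proliferative and 2110 to 2820 for *aadd*, and none of the 10 was at 0 throughout a group. The WT hypertrophic libraries had sums of 584, 837 and 2720. The highest was that of replicate 1, which stood apart from replicates 2 and 3 with a sum of 52.6 NRPKM for the macrophage and osteoclast markers where the others had 959 and 1300. The hypertrophic markers (*Col10a1*, *Ihh* and 8 others) had sums of 49.1 to 82.1 NRPKM for *aadd*, 74.7 to 112 for WT resting and 1950 to 3950 for WT hypertrophic. In tissue of mixed cells, a lower value cannot tell fewer cells of a type from less RNA per cell.

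*Hoxd13*, the last HoxD gene and a regulator of digit formation, was at the edge of detection in WT cartilage and among the higher Hox genes in *aadd*. The 3 WT resting libraries had 0.409, 0.503 and 0.315 NRPKM, which is 3, 3 and 2 reads. The WT proliferative libraries had 1.7, 0.421 and 0.213 NRPKM and the WT hypertrophic libraries had 1.7, 1.12 and 0.271. The *aadd* libraries had 20.8, 17.6 and 31.2 NRPKM, or 144, 96 and 221 reads. No WT library came near them, and *aadd* replicate 3 was the highest of the 3. Pooled over the libraries, the read rate (recovered reads over library depth) of *Hoxd13* in *aadd* was 58.1 times that of WT resting (exact 95% counting interval 29.2 to 135), 26.9 times that of WT proliferative (15.9 to 49.7) and 23.9 times that of WT hypertrophic. Over all 9 WT libraries the ratio was 31.3 (22.9 to 43.8). Such intervals cover counting error only, since amplified reads are not independent molecules.

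*Hoxd12*, its neighbour, also used in the distal limb, was lower than *Hoxd13* in each *aadd* library, and its *aadd* and WT libraries did not overlap either. It had 0.134, 0.165 and 0.466 NRPKM in WT resting, 0.303, 0 and 1.05 in WT proliferative and 0.68, 0 and 0.133 in WT hypertrophic. In *aadd* it had 4.71, 7.21 and 6.38 NRPKM, or 33, 40 and 46 reads, above all WT libraries, of which none had more than 5 reads. The read rate was 24 times that of WT resting (10 to 75.3), 13.9 times that of WT proliferative (6.55 to 35.3) and 25.9 times that of WT hypertrophic (10.8 to 81.4).

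*Hoxa13*, on another chromosome and needed with *Hoxd13* for the hand plate, was above 0 in 2 of the 9 WT libraries. These were WT resting replicate 2 with 0.635 NRPKM (2 reads) and WT proliferative replicate 3 with 0.404 NRPKM (1 read). In *aadd* it had 2.72, 3.47 and 5.09 NRPKM, or about 10, 10 and 19 reads. The groups did not overlap, although the WT values rest on 3 reads in all. The read rate was 19.7 times that of WT resting (5.09 to 168) and 31.9 times that of WT proliferative (5.4 to 1290). Against WT hypertrophic, which had no read, *aadd* was at least 3.83-fold higher, with 3 reads in 1 library taken as the limit of detection.

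*Hoxd8*, next to *Hoxd9* on the anterior side, was the only one of the 7 with more than 12 reads in any WT library. It had 3.75, 9.75 and 7.39 NRPKM in WT resting, 6.71, 8.44 and 1.94 in WT proliferative and 8.51, 4.55 and 3.32 in WT hypertrophic. In *aadd* it had 33.8, 26.1 and 34.4 NRPKM. The lowest *aadd* library was above the highest WT library, WT resting replicate 2. The read rate was 4.71 times that of WT resting (3.67 to 6.12), 5.48 times that of WT proliferative (4.1 to 7.46) and 6.14 times that of WT hypertrophic (4.69 to 8.16).

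*Hoxd3* and *Hoxd4*, anterior genes known mainly from the hindbrain and neck vertebrae, stayed under 1 NRPKM in each WT library. *Hoxd3* ranged from 0 to 0.593 NRPKM over the 9 WT libraries and had 3.43, 4.14 and 2.3 in *aadd*. *Hoxd4* ranged from 0 to 0.982 NRPKM in WT and had 2.59, 2.48 and 2.27 in *aadd*. Neither overlapped between *aadd* and WT. The read rate in *aadd* was 12.3 times that of WT resting for *Hoxd3* (5.37 to 34.5) and 4.12 times for *Hoxd4* (2.16 to 8.51). *Hoxd3os1* (1700109F18Rik in the table) was at 5.92, 8.92 and 3.8 NRPKM in *aadd* and at 0 to 1.71 in WT, so it too was higher in *aadd*. Within WT its means were 1.56, 0.369 and 0.354 NRPKM for resting, proliferative and hypertrophic. Those of *Hoxd3* were 0.258, 0.289 and 0.312. The part of *Hoxd3os1* in the *Hoxd3* and *Hoxd8* values was not tested. The row of *Mir10b*, a microRNA gene of 68 bases within the *Hoxd4* row, had 9.61, 14.8 and 5.75 NRPKM in *aadd*, which is only about 1 to 2 reads each.

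*Hoxd1*, at the anterior end, was the exception. It was listed at 0 in 7 of the 9 WT libraries and in *aadd* replicate 1. It had 0.244 and 1.19 NRPKM in *aadd* replicates 2 and 3, and 1.42 in WT proliferative replicate 3 and 0.18 in WT hypertrophic replicate 3. The groups overlapped. With 7 reads in *aadd* and 6 in the 9 WT libraries, the ratio of read rates was 3.4 (0.979 to 12.3), so that a difference was not detectable at this depth.

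**Figure D1:**
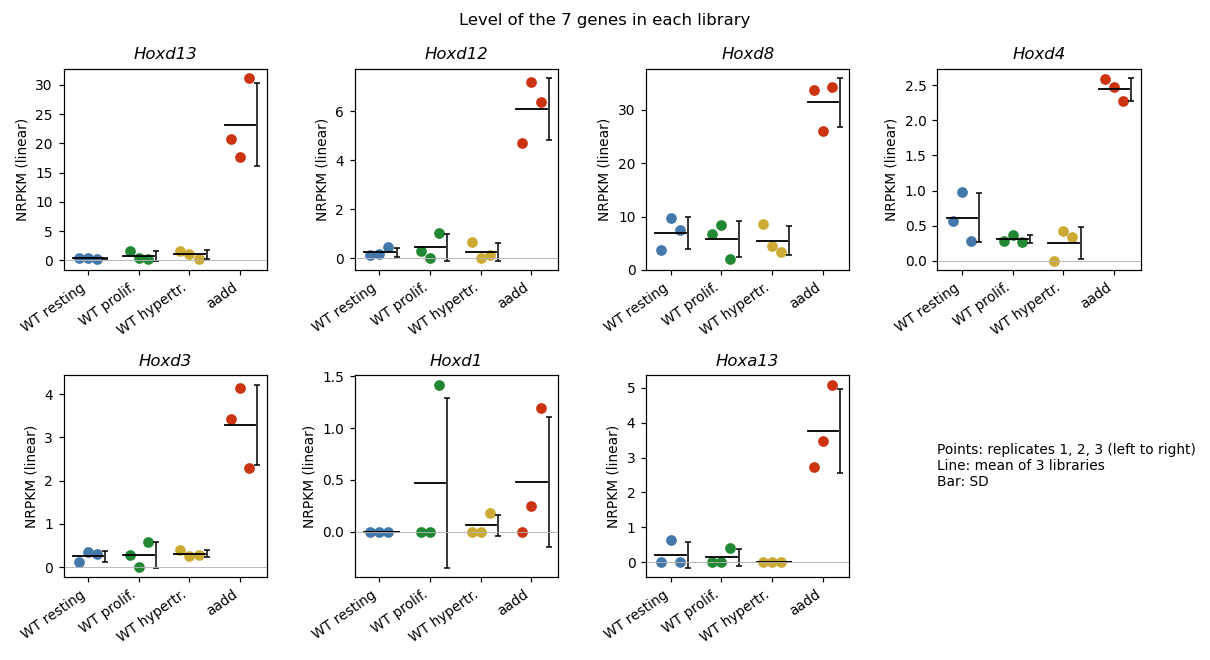
Level of each of the 7 genes in NRPKM (linear axis) in the 3 libraries of each group, with replicates 1, 2 and 3 from left to right, the mean as a line and the SD as a bar. The 3 *aadd* libraries lie above all 9 WT libraries in every panel but that of *Hoxd1*, where 1.19 NRPKM in *aadd* lies below 1.42 in WT proliferative.

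The order of the levels in *aadd* was *Hoxd8* with 31.4 ± 4.65 NRPKM (SD, n = 3), *Hoxd13* with 23.2 ± 7.09, *Hoxd12* with 6.1 ± 1.28, *Hoxa13* with 3.76 ± 1.21, *Hoxd3* with 3.29 ± 0.927, *Hoxd4* with 2.44 ± 0.166 and *Hoxd1* with 0.479 ± 0.63. *Hoxd8* and *Hoxd13* overlapped between libraries, as did each neighbouring pair from *Hoxd12* to *Hoxd4*. *Hoxd13* did not overlap *Hoxd12*, nor *Hoxd4* *Hoxd1*. In WT resting the order was different, with *Hoxd8* at 6.97 ± 3.02 NRPKM, *Hoxd4* at 0.611 ± 0.35 and *Hoxd13* at 0.409 ± 0.0941. The 6 HoxD genes summed to 57.7, 65.4 and 77.7 NRPKM in the *aadd* libraries and to between 4.51 and 11.7 in the WT libraries. *Hoxd13* alone made up 11.7% to 16% of the summed level of all 9 HoxD genes in *aadd*, 0.93% to 1.35% in WT resting, 1.58% to 9.71% in WT proliferative and 3.05% to 12.4% in WT hypertrophic, the last of which overlapped *aadd*.

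The 7 genes were then tested with limma on log2(NRPKM + 0.1) in the fit of the whole table, where a gene was called at an unadjusted *P* up to 0.05 with a fold change of at least 1.5. Among rows with at least 5 NRPKM in at least 3 libraries, 10936 in all, only *Hoxd8* and *Hoxd13* were present, and *Hoxd13* only through its *aadd* values. Counts over the 7 genes are therefore given from a fit of all 23070 rows above 0 in any library. In that fit 6 of the 7 were called higher in *aadd* than in WT resting, all but *Hoxd1*, where 3.58% of all rows were. All 3 *aadd* libraries lay above all 9 WT libraries for 6 of the 7, against 1.91% of all rows and 2.82% of the filtered rows.

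Between *aadd* and WT resting, *Hoxd13* was higher by 5.49 ± 0.27 (SE) on the log2 scale in the fit of all rows, with an adjusted p of 0.017. It was the only one of the 7 with an adjusted p under 0.05, against 0.126% of all rows that had one and were higher, and the number was 0 without any single WT resting library. *Hoxa13* was higher by 4.27 ± 0.9 (adjusted p = 0.38), *Hoxd12* by 4.22 ± 0.4 (adjusted p = 0.083), *Hoxd3* by 3.28 ± 0.39 (adjusted p = 0.14), *Hoxd8* by 2.25 ± 0.39 (adjusted p = 0.3) and *Hoxd4* by 1.96 ± 0.4 (adjusted p = 0.36). Among the filtered rows, of which 3.78% were called higher and 0.0823% had an adjusted p under 0.05 and were higher, *Hoxd8* had an adjusted p of 0.12. The value of *Hoxd13* there (0.0017) was conditioned on the *aadd* libraries that brought it past the filter. Differences on this scale understate the change of genes with few reads. *Hoxd1* differed by 1.83 ± 0.97 and was not called, but was called without *aadd* replicate 1 (2.74). Without WT resting replicate 2, the sole resting library with *Hoxa13* reads, the value for *Hoxa13* was 5.22.

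Against the mean of the 3 WT compartments, which uses all 12 libraries, 6 of the 7 were again called higher in the fit of all rows, where 5.47% of rows were. All 6 had an adjusted p under 0.05, against 0.568% of rows. *Hoxd13* was higher by 5.06 ± 0.57 (adjusted p = 0.0048), *Hoxa13* by 4.65 ± 0.67 (adjusted p = 0.014), *Hoxd12* by 4.28 ± 0.75 (adjusted p = 0.035), *Hoxd3* by 3.26 ± 0.51 (adjusted p = 0.021), *Hoxd4* by 2.6 ± 0.48 (adjusted p = 0.04) and *Hoxd8* by 2.51 ± 0.47 (adjusted p = 0.043). Among the filtered rows, of which 6.35% were called higher and 2.19% had an adjusted p under 0.05 and were higher, *Hoxd8* had an adjusted p of 0.012. *Hoxd1* differed by 1.22 ± 0.93 (adjusted p = 0.73), and was called only without WT proliferative replicate 3 (1.66). Without WT hypertrophic replicate 1, the library that stood apart, *Hoxd13* was higher by 5.22 and *Hoxd8* by 2.63, and the number with an adjusted p under 0.05 was still 6. That number rested on most other libraries: it was 1 without any single *aadd* library, 2 without WT hypertrophic replicate 3, and 3 without any single WT resting library or WT proliferative replicate 1. With the replicate number as a block it was 3. The *aadd* and WT resting libraries enter both comparisons, which are not independent.

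Within WT cartilage the 7 genes gave no difference that passed. By limma in the fit of all rows, with a fold change of at least 2, 0 of the 7 were called between WT proliferative and WT resting, where 6.48% of rows were, 0 between WT hypertrophic and WT proliferative (8.36%), and 0 between WT hypertrophic and WT resting (11.0%). At an unadjusted *P* under 0.05 with no fold limit the counts were also 0, 0 and 0. The fits took no account of replicate number. *Hoxd8*, the only one with a level to measure, differed by -0.42 ± 0.69, 0.07 ± 0.68 and -0.35 ± 0.52 in these comparisons. *Hoxd13* differed by 0.4 ± 0.7, 0.49 ± 0.92 and 0.89 ± 0.64. It was called higher in WT hypertrophic than in WT resting without WT hypertrophic replicate 3 (1.56). *Hoxd4* was called lower in WT proliferative than in WT resting without WT resting replicate 3 (-1.08). These errors leave room for changes of 2-fold and more. For comparison, the frameshifted genes *Hoxd9*, *Hoxd10* and *Hoxd11* were called lower in WT hypertrophic than in WT resting among the filtered rows. The differences were -1.64 ± 0.51, -2.85 ± 0.4 and -3.03 ± 0.67. By limma's moderated F test over the 4 groups, 5 of the 7 had an adjusted p under 0.05 in the fit of all rows, against 3.93% of rows. That number was 1 with the replicate number as a block, 2 without any single WT resting library, 3 without WT proliferative replicate 1 and 1 without any single *aadd* library or WT hypertrophic replicate 2 or 3. Of the remaining pair, *Hoxd8* had an adjusted p of 0.059 there and 0.019 among the filtered rows, and *Hoxd1* had 0.67.

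**Figure D2:**
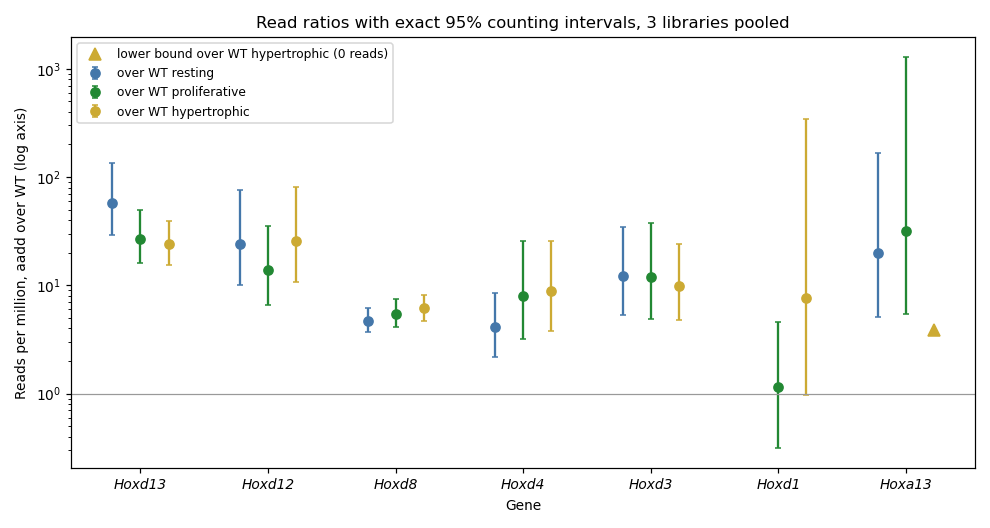
Ratio of the pooled read rate in *aadd* to that in each WT compartment (log axis) for the 7 genes, with the exact 95% counting interval as a bar. The triangle is the lower bound of *Hoxa13* over WT hypertrophic (3.83), and *Hoxd1* over WT resting, with 0 reads, is not drawn. The intervals of *Hoxd1* reach below 1, whereas the lowest bound of the other genes is 2.16, for *Hoxd4* over WT resting.

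By position, the difference was largest at the *Hoxd13* end of the cluster. Against the 3 WT compartments it was 5.06 at *Hoxd13*, 4.28 at *Hoxd12*, 6.7 kb further on, 3.79, 3.24 and 2.98 at the frameshifted *Hoxd11*, *Hoxd10* and *Hoxd9*, and 2.51 at *Hoxd8*, 37.2 kb from *Hoxd13*. The order did not continue beyond *Hoxd8*: *Hoxd3* was at 3.26 and *Hoxd4* at 2.6. The SEs from *Hoxd13* to *Hoxd8* were 0.27 to 0.75, and the trend along the cluster was not tested. The values of *Hoxd12*, *Hoxd3* and *Hoxd4* are from the fit of all rows and the others from the filtered rows. Against WT resting alone the frameshifted genes were lower, with 2.37, 1.59 and 1.87, and did not fill the interval between *Hoxd12* and *Hoxd8* in order.

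**Figure D3:**
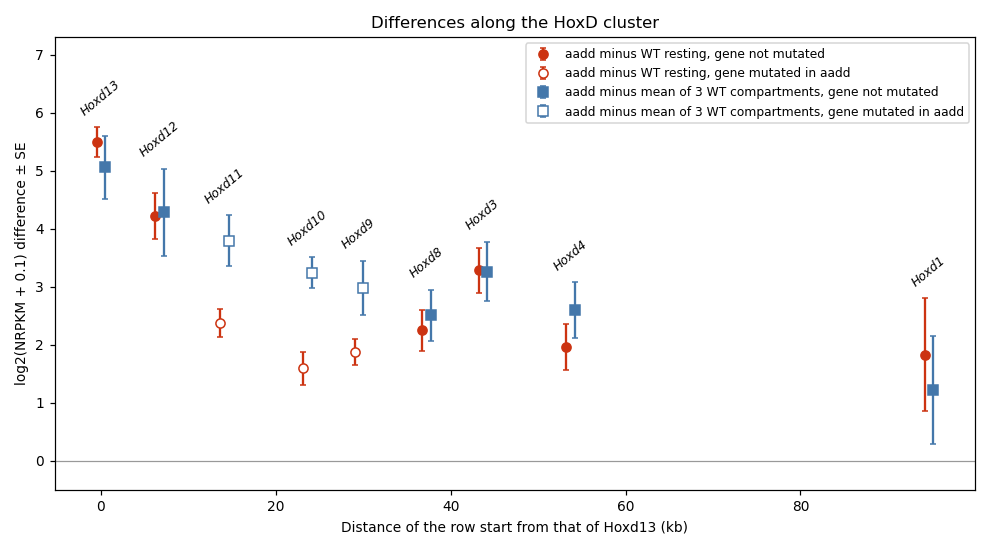
Difference in log2(NRPKM + 0.1) of each HoxD gene, ± SE, against the distance of its row from that of *Hoxd13* in kb, for *aadd* against WT resting (circles) and against the mean of the 3 WT compartments (squares), with open symbols for the genes mutated in *aadd*. The values are highest at *Hoxd13* (5.49 and 5.06) and *Hoxd12* (4.22 and 4.28), and *Hoxd1*, 94.7 kb away, has the widest bars (0.97 and 0.93). Genes past the filter are from the fit of the filtered rows and the others from the fit of all rows.

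Protein-coding genes on either side of the cluster were not called. *Lnp* (*Lnpk*), on the *Hoxd13* side, was at 14.7 to 21.9 NRPKM in *aadd* and 8.25 to 17 in WT, with a difference of 0.42 ± 0.2 (adjusted p = 0.32) against the 3 compartments. *Mtx2*, on the *Hoxd1* side, differed by -0.05 ± 0.18 (adjusted p = 0.92). *Evx2*, a homeobox gene immediately beyond *Hoxd13* that shares its hand enhancers, was listed at 0 in all libraries but WT proliferative replicate 2 (0.732 NRPKM). In the HoxD neighbourhood list, 7 of 10 rows were tested and 4 were called higher against the 3 compartments, namely *Hoxd9*, *Hoxd10*, *Hoxd11* and *Mir10b*, where 6.35% of all tested rows were. *Hoxd11* and *Mir10b* had fewer than 3 WT libraries at the level of the filter.

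The balance among the HoxD genes was described within each library, as differences in log2(NRPKM + 0.1). The ratios were chosen with the levels known and are given with no test, and with WT values this low the added 0.1 leaves them dependent on the scaling of the library. The log2 ratio of *Hoxd13* to *Hoxd8* was -0.47 ± 0.29 (SD, n = 3) in *aadd*, from -0.7 to -0.14, and -3.02 ± 0.9 (n = 9) in WT, where the highest value was -1.92. These did not overlap. The ratio of *Hoxd13* to *Hoxd12* was 1.89 ± 0.54 in *aadd* and 1.11 ± 1.6 in WT, and the libraries overlapped. The ratio of *Hoxd13* to the mean of *Hoxd9*, *Hoxd10* and *Hoxd11* was -0.53 ± 0.25 in *aadd*, from -0.78 to -0.28. It went from -4.28 to -3.71 for WT resting, from -2.86 to -0.64 for WT proliferative and from -1.75 to 0.51 for WT hypertrophic. WT proliferative and WT hypertrophic overlapped *aadd*. The ratio of *Hoxd8* to the same mean was -0.06 ± 0.21 in *aadd* and 0.77 ± 1.16 in WT.

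The neighbours of *Hoxa13* in the HoxA cluster were read in the same way. Of the 12 tested rows of the HoxA neighbourhood, 8 were called higher in *aadd* than in the 3 compartments and 3 than in WT resting, with medians of 1.07 and 0.33 on the log2 scale, where all tested rows had medians of 0.03 and 0.01 and 6.35% and 3.78% were called higher. Of the 12, 4 had fewer than 3 WT libraries at the level of the filter. Next to *Hoxa13* the frameshifted *Hoxa11*, *Hoxa10* and *Hoxa9* differed by -0.38 ± 0.31, 0.19 ± 0.33 and 0.9 ± 0.27 from the 3 compartments. The intact *Hoxa7*, *Hoxa5* and *Hoxa2* differed by 1.62 ± 0.37, 1.38 ± 0.27 and 1.67 ± 0.26, with *Hoxa7* from the fit of all rows. *Evx1*, beyond *Hoxa13*, was at 0, 0.316 and 0.121 NRPKM in *aadd* and at 0 to 0.0258 in WT. From group 9 to group 11 the HoxA values fell in order and the HoxD values went up, and the contrast between the clusters was not tested.

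**Figure D4:**
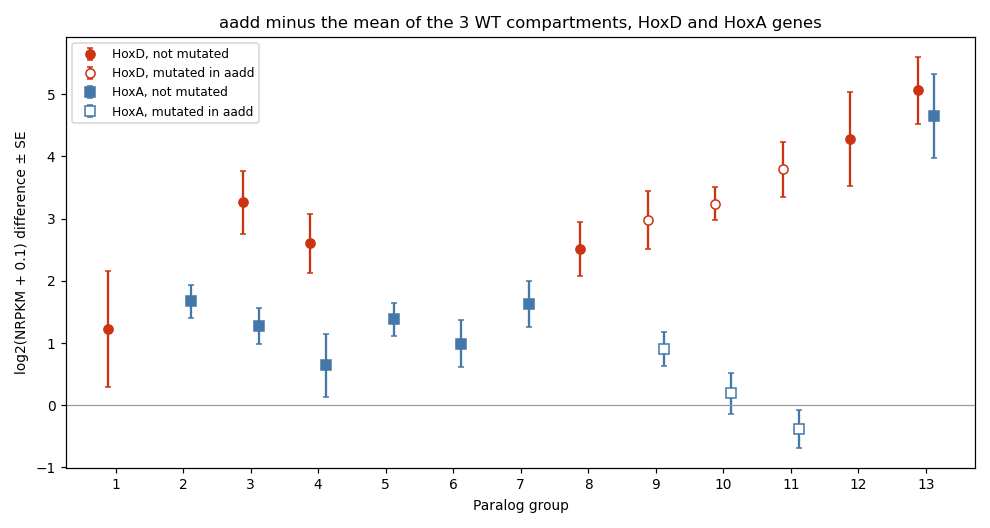
Difference in log2(NRPKM + 0.1) between *aadd* and the mean of the 3 WT compartments, ± SE, by paralog group for HoxD (circles) and HoxA (squares), with open symbols for the genes mutated in *aadd*. HoxD values go from 2.51 in group 8 to 5.06 in group 13, whereas HoxA values fall to -0.38 in group 11 and stand at 4.65 in group 13. Genes past the filter are from the fit of the filtered rows and the others from the fit of all rows.

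Among the 12 paralogs of these genes in the other clusters, 3 passed the filter. *Hoxc8*, paralog of *Hoxd8*, had a mean of 11.3 NRPKM in *aadd*, with no library under 10.4, and lay at 1.28 to 4.02 in WT, a difference of 2.19 ± 0.28 against the 3 compartments. It passed the filter only through *aadd*, so no test is given for it. *Hoxa3* was called (1.27 ± 0.29, adjusted p = 0.038) and *Hoxa4* was not (0.64 ± 0.5). *Hoxc4*, below the filter, was at 3.03, 8.3 and 4.59 NRPKM in *aadd* and at 0.241 to 0.915 in WT. The group 12 and 13 paralogs did not follow: the mean levels of *Hoxb13*, *Hoxc13* and *Hoxc12* in *aadd* were 0.824, 0.125 and 0 NRPKM, and each overlapped WT.

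The promoters of the 7 genes were read from RefSeq windows on GRCm38.p6, all 7 of which matched, as the 250 bases before the annotated start. Those of *Hoxd13* (chr2:74667975-74668224, +), with the largest difference on the log2(NRPKM + 0.1) scale, and *Hoxd1* (chr2:74762730-74762979, +), which was not called, are shown with CpG pairs in capitals.
Hoxd13 promoter: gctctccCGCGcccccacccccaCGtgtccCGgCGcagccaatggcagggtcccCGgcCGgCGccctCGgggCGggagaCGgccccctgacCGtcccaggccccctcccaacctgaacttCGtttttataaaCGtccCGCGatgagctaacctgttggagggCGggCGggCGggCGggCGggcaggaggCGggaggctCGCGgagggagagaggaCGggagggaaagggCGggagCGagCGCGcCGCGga
Hoxd1 promoter: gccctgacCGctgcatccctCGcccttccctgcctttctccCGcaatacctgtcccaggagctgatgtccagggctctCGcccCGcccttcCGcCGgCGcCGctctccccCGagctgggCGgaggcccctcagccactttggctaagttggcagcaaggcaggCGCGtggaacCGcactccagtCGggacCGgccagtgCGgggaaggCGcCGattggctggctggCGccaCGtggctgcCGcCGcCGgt
The *Hoxd13* window held 31 CpG pairs, and 5.19% of all 32851 windows held as many. *Hoxa13* held 35 (2.97%), *Hoxd1* 24 (12%), *Hoxd3* 12 (33.5%), *Hoxd12* 10 (37.8%), *Hoxd8* 6 (50.4%) and *Hoxd4* 3 (71%). The order did not follow that of the differences, since *Hoxd1* held more than *Hoxd12*. The annotated start of *Hoxd8* in RefSeq lies upstream of its row in the table.

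Genes linked in the limb to the group 12 and 13 proteins moved in both directions. Of 15, 12 were tested, and 4 were called higher and 3 lower in *aadd* than in the 3 WT compartments, where 6.35% and 4.49% of all tested rows were, with a median of 0.17 against 0.03 over all tested rows. The 4 were *Gdf5*, a joint signal, at 24.4 to 34.6 NRPKM in *aadd* and 0.667 to 17.4 in WT (2.37, adjusted p = 0.035), *Hand2*, a posterior limb factor that passed the filter only through *aadd* (2.28), *Gli3*, the hedgehog effector (0.87, adjusted p = 0.0085), and *Enpp2* (0.63, adjusted p = 0.12). The 3 were *Runx2*, which drives chondrocyte maturation (-1.46, adjusted p = 0.0055), *Bmp7* (-1.26, adjusted p = 0.058) and *Msx2* (-0.69, adjusted p = 0.11). Against WT resting, 4 of the 12 were called higher and 1 lower, where 3.78% and 2.78% of all tested rows were. *Gli3* (0.27, adjusted p = 0.66), *Runx2* (-0.33, adjusted p = 0.77) and *Msx2* (-0.09, adjusted p = 0.93) were not called there. *Gdf5* was called there (1.44, adjusted p = 0.25).

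Markers of other tissues were read beside the 7 genes, against the same 6.35% of tested rows called higher and 4.49% lower than in the 3 compartments. In the distal limb list, apart from the Hox genes, 5 of 10 were tested, and 3 were called higher and 2 lower in *aadd* than in the 3 compartments. *Osr1* was at 41.3 to 54.1 NRPKM in *aadd* and 0.668 to 19 in WT, *Sall1*, which passed the filter only through *aadd*, at 7.04 to 9.61 and 0.298 to 2.25, and *Lhx2*, which overlapped, at 8.56 to 10.3 and 1.19 to 14.2. The 2 lower genes were *Bambi* (-1.6), at 2.73 to 4.2 NRPKM in *aadd* and 3.63 to 24.1 in WT, and *Msx2* (-0.69). *Msx2* was at 1.99 to 3.72 and 2.89 to 9.19, and both overlapped. The list summed to 75 to 89.9 NRPKM in *aadd* and 35.5 to 47.1 in WT, but without *Osr1* the other 9 genes summed to 31.3 to 35.8 in *aadd*, within the 16.5 to 43.0 of WT. The study itself places *Osr1* with the genes of joints, so its value is not particular to the distal limb. The joint list summed to 232 to 262 NRPKM in *aadd*, 147 to 179 in WT resting and 51.2 to 84.1 in the other compartments. Of its 9 tested genes, 7 were called higher against the 3 compartments and 5 against WT resting, where 3.78% of tested rows were. Of the 9, *Gdf6* and *Barx1* had fewer than 3 WT libraries at the level of the filter. Without *Sfrp2*, the most abundant gene of the list, the joint sums were 148 to 173 NRPKM for *aadd* and 39.2 to 144 for WT. No marker of these 2 lists was at 0 throughout the *aadd* group. Perichondrial markers had sums of 557 to 1190 NRPKM for *aadd* and 565 to 921 for WT resting, with 2 of 10 called higher than in WT resting, where 3.78% of tested rows were. Muscle markers had sums of 15.6 to 46.1 NRPKM for *aadd*, 5.22 to 14 for WT resting, 9.39 to 93 for WT proliferative and 12.4 to 36.8 for WT hypertrophic. *Actc1*, the only muscle gene tested, was called higher than in WT resting (2.97, adjusted p = 0.096) and not against the 3 compartments. None of the tested endothelial, macrophage and osteoclast or erythroid markers, 2, 4 and 2 in number, was called between *aadd* and WT resting. The sums of these lists were 5.81 to 38.9, 15.7 to 38.7 and 33.7 to 77.6 NRPKM in *aadd*. In WT resting they were 5.24 to 12.1, 28.1 to 29.1 and 23.6 to 45.5, so the highest *aadd* sum was above WT resting in each list. Against the 3 compartments, 2 of the 4 macrophage and osteoclast markers were called lower. Of the proximal limb list, 2 of 5 tested genes were lower and 1 higher against the 3 compartments. *Shox2*, a gene of the arm and forearm, was at 3.33 to 5.24 NRPKM in *aadd*, with WT means of 52.7, 70.0 and 20.8 for resting, proliferative and hypertrophic. *Irx5*, the other lower gene, was at 0 to 1.32 NRPKM in *aadd*, with WT means of 0.0578, 1.46 and 17.6 in the same order. The higher gene was *Tbx5* (2.1), at 90.9 to 104 NRPKM in *aadd* and 5.6 to 74.9 in WT. Neither *Irx5* nor *Tbx5* was called against WT resting. The part of distal or joint tissue in the *Hoxd13*, *Hoxd12* and *Hoxa13* values was not tested.

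Over the 12 libraries, the rows most like *Hoxd8* by Pearson correlation of log2 values, among 10936, were *D14Abb1e* (r = 0.941), *Hoxd9* (0.921) and *Atl3* (0.906). Those most like *Hoxd13* were *Impa1* (0.915), *Atl3* (0.902) and *Hoxd8* (0.896). The libraries form 4 groups, of which *aadd* stands apart for these genes, so the correlations describe mainly that division.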

How the data were processed

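RNA from 12 LCM samples was amplified (Ovation V2), tagmented with Nextera and sequenced on a HiSeq 2500. The submitters' processing notes name TopHat and mm10. Reads of low quality, with several alignments or present in duplicate had been dropped by the authors, who deposited RPKM values with a further normalization between libraries (NRPKM). That normalization and the use of strand are not given in the sources used here. Here log2(NRPKM + 0.1) was fitted in limma 3.58.1 (R 4.3.3), with moderated tests on the 6 libraries of each pair, or all 12 for the 3 compartments and the F test, and Benjamini-Hochberg adjustment over all rows tested. Reads were recovered as value times exon length over the step of 1 read, with 82.8% to 92.7% of single-exon values whole within 0.03. Python 3.11.15, numpy 2.4.6, pandas 2.3.3, scipy 1.17.1 and matplotlib 3.10.9 were used. The fits were tested on simulated data.

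The genes named were the 7 genes, their HoxD and HoxA neighbours, their paralogs, genes linked to the group 12 and 13 proteins, fixed marker lists and the 3 most correlated rows of each gene past the filter. Not every HoxA gene is reported here. Genes and lists were chosen with earlier results of these data known. The fit of all rows above 0 as the source for *Hoxd1*, *Hoxd3*, *Hoxd4*, *Hoxd12* and *Hoxa13* was chosen after their values were seen. The labels number replicates 1 to 3 and do not say whether they are separate embryos, so p-values measure the spread between these samples only. Deviations from the group means correlated between WT resting and WT proliferative libraries of the same number (r = 0.281, 0.179 and 0.198). Other groups did not all exceed 0.1, although replicate 2 of WT resting and of *aadd* had 0.28. The main fits did not pair the WT resting and WT proliferative libraries, and only the replicate block took them as pairs. Alternatives were a pseudocount of 1, no filter, the same filter within each pair of groups, 2 other scalings (median of ratios, quantiles), 1 joint fit of the 12 libraries, a replicate block, a variance trend and each library left out.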

Additional observations from a re-analysis of the deposited data

How the results depend on the processing

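Of 614 values recomputed, 526 were taken as kept. A value of 1 gene was kept if it held its direction and side of the threshold. A count of genes was kept if it stayed close to the main count. The 526 therefore include a count of 6 against the 3 compartments that fell to 5 with quantile normalization. It fell to 4 without WT hypertrophic replicate 2, also taken as kept. *Hoxd13* and *Hoxd8* were called higher in *aadd* under every alternative, at 4.06 to 5.67 and 1.86 to 2.54 against WT resting and at 3.83 to 5.3 and 2.3 to 2.64 against the 3 WT compartments. A pseudocount of 1 gave the lowest value for *Hoxd12* (2.49 and 2.44), *Hoxd3* (1.75 and 1.73), *Hoxd4* (1.12 and 1.33) and *Hoxa13* (1.98 and 2.09), as it must for genes of few reads, and each stayed called. Without the filter the number called went from 2 to 6 in both *aadd* comparisons and to 5 in the F test, by the addition of rows. Over all rows, 6 to 7 were called with each library left out.

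The number with an adjusted p under 0.05 was less stable. Against WT resting it was 1, and 0 with a pseudocount of 1, the variance trend or the replicate block, and 0 to 1 with a library left out. Against the 3 compartments it was 6, 3 with the replicate block, and 1 to 6 with a library left out. In the F test over all rows it was 5, 1 with the replicate block and 1 to 6 with a library left out. Over filtered rows it was 2, and 1 to 2 with a library left out. Of those 2, *Hoxd13* passed the filter only through its *aadd* values. Fewer libraries lower the power of each fit; the cause of the block's effect was not tested. The labels do not say whether libraries of the same number are pairs. Between WT resting and WT proliferative the block called 0.

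Between WT compartments, quantile normalization over all rows called 1, *Hoxd4*, between proliferative and resting, and leaving out a library called 0 to 1 there and between hypertrophic and resting, over all or filtered rows. With a library left out, *Hoxd8* went from -0.82 to 0.21 between proliferative and resting and from -0.56 to 0.47 between hypertrophic and proliferative, and *Hoxd13* from -0.32 to 0.95 and from -0.05 to 1.21. The signs turned without WT proliferative replicate 3 (0.21, -0.56 and -0.05), WT proliferative replicate 1 (-0.32) or WT hypertrophic replicate 1 (-0.3, *Hoxd8* between hypertrophic and proliferative), and with quantile normalization for the last (-0.01). None of the turned values was called. Depth limits *Hoxd1* and the WT levels of all but *Hoxd8*.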
